A study of Rattus norvegicus with 18 samples.

Results

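A set of 7 developmental regulator genes of the rat was followed through the methylation tables of fetal germ cells, namely the paired-box genes Pax2, Pax5 and Pax7, the T-box genes Tbx5 and Tbx20, and the homeobox genes Six4 and Cux2. The 7 symbols were picked with earlier results of these data known, and a region counts as theirs where the deposited RefSeq transcript of that region maps to one of these 7 symbols. The 4 full tables of the series held 71 such regions out of 61661, and 8242 genes had a region in at least 1 table. A region is a stretch of neighbouring CpGs that the authors listed as differentially methylated between groups.

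Paired-box, T-box and homeobox genes encode DNA-binding proteins that set the identity of tissues in the embryo, mostly in somatic lineages. Fetal germ cells lose most of their DNA methylation in stages, before and after they reach the gonad, and male germ cells begin to regain it before birth. Pax2 acts in kidney, eye and hindbrain formation, Pax5 in B cell commitment, and Pax7 in muscle stem cells and the neural crest. Tbx5 patterns the heart and the forelimb, and Tbx20 is a cardiac factor. Six4 acts in muscle and kidney formation, and Cux2 marks upper-layer neurons of the cerebral cortex.

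The germ cells came from Sprague-Dawley rats that carry a germ-cell-specific green fluorescent protein and were sorted by that fluorescence, and every group, controls included, carries the transgene. The groups were males at gestational day (GD) 16 whose dams ate a high-fat diet (HFD, 45% of energy from fat; 4 samples), females at GD16 from HFD dams (3), males at GD18 from dams on the control diet (18% of energy from fat; 4), males at GD16 from control dams (4) and females at GD16 from control dams (3). Each diet was given to 5 dams, and the labels do not say which samples share a dam, nor which group the 4 samples re-analysed from another project form. The labelled cell type could not be checked, because the tables hold methylation of listed regions and no expression.

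All levels below are the authors' means of CpG methylation over a group, in percent, from a capture of target regions followed by bisulfite sequencing. The tables give no value per sample, no spread and no read depth, so no difference could be set against the spread between animals and no test was run here. A region called higher or lower was listed so by the authors, with at least 5 CpGs, a difference of at least 10 points and a false discovery rate (FDR) of up to 0.05. No source used here says what the authors' test took as its unit, so with 3 or 4 samples in a group the FDRs printed below may not measure variation between animals. The share of a table that lies in one direction is therefore a share of listed regions and not of all regions measured. A region missing from a table may have differed by less, may have failed the test or may not have been covered, and these cannot be told apart.

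The member regions were mostly annotated as introns. A region needs a deposited transcript to count as a member, so regions annotated as intergenic could not enter the set. Of the 71, 66 were annotated as intron, 2 as exon, 2 as 3' UTR and 1 as transcript end, and no region was in a promoter, a 5' UTR or a CpG island. Promoters made up 4.74% and 5' UTRs 0.272% of the 30932 listed regions with a transcript in the 4 tables. CpG islands made up 0.139 to 0.955% of such regions by table. For 5' UTRs and CpG islands the shares are so small that nothing is read from their absence here. Between control males and females at GD16, introns made up 96.3% of 54 member regions and 72.8% of listed regions with a transcript. Exons made up 1.85% and 14.4% there, and 3' UTRs 1.85% and 3.63%. In the male diet table introns made up 84.6% of 13 member regions and 71.1% of listed regions with a transcript. Exons made up 0% and 16.3% there, and 3' UTRs 7.69% and 2.94%. The remaining tables held 2 member regions each, too few for shares. Of the 71 member regions, 5 (7.04%) overlapped a repeat, against 2.32 to 5.29% of listed regions with a transcript by table. The repeats were an ID_B1 and 2 MIR elements among the SINEs, an ORR1A3 of the LTR class and an X24_DNA transposon. Of the repeats, 4 were in Cux2, and the transposon was in Pax2.

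The gene starts hold more CpG than the median rat promoter, and they are shown here because no listed region of a member carries the authors' promoter annotation. RefSeq promoters (build GRCr8) were at hand for 6 of the 7 genes, without Pax5. In the 250 bases before the start the letters CG occurred 39 times at Cux2, 25 at Pax2, 22 at Tbx20, 13 at Six4, 10 at Pax7 and 9 at Tbx5, against a median of 5 over 33469 rat promoters (quartiles 2 and 15). As many as at Cux2 were found in 1.43% of all promoters, and as many as at Tbx5 in 38.5%. The richest and the poorest of the 6 are printed 5′ to 3′ with each CG in capitals, Cux2 from chr12:40179032-40179281 on the plus strand and Tbx5 from chr12:42395360-42395609 on the minus strand of GRCr8. No source used here names the build of the deposited tables, so these positions cannot be set against the region coordinates given further on, and whether a listed region falls within these windows is not known.
Cux2: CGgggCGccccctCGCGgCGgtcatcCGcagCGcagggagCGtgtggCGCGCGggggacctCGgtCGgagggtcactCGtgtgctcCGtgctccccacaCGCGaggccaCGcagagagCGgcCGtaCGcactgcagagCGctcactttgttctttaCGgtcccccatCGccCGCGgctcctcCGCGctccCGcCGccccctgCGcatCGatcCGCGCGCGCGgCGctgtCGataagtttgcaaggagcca
Tbx5: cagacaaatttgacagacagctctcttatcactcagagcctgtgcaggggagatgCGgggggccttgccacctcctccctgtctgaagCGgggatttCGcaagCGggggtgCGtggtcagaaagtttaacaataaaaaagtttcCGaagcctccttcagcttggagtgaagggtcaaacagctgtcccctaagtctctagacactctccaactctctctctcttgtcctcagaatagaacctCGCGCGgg

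Control males at GD16 were more methylated than control females at GD16 at each of the 54 member regions in that table. This direction was not particular to the 7 genes, since 99.7% of all 48127 listed regions were higher and 0.343% lower in males, and 94.9% of the 8242 genes had a region there. Over the 54 regions the median of the authors' means was 18.0% in males (13.9 to 34.8%) and 4.35% in females (1.2 to 10.9%). The lowest male level thus stood above the highest female level. Each region was listed for a difference of at least 10 points, so nothing is read from that gap. All listed regions together had a median of 19.6% in males, with 4.7% in females. The median difference was 13.45 points for the members and 14.3 points for all listed regions, and 12 of the 54 reached 20 points. Member regions held 5 to 27 CpGs over 96 to 1188 bp.

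**Figure D1:**
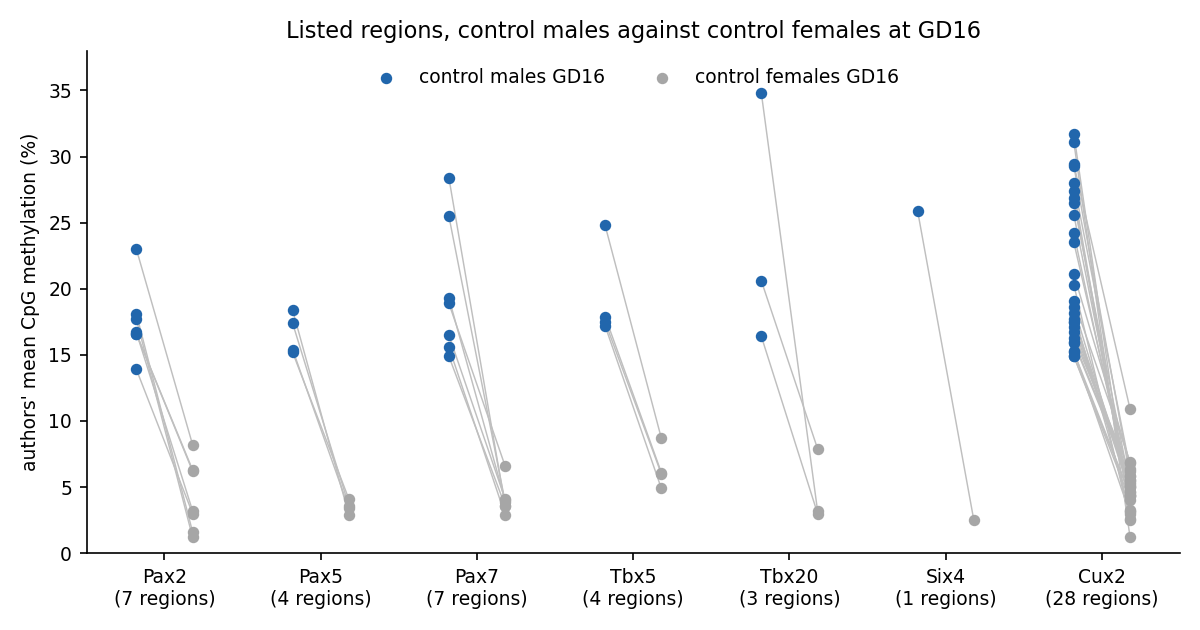
Authors' mean CpG methylation in percent (vertical axis) of the 54 member regions listed between control males and control females at GD16, by gene, with a line joining the values of each region. Every male value lies above its female partner, and Cux2 holds 28 of the regions.

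Among the paired-box genes, Pax2 had 7 intronic regions over 47.47 kb, with 13.9 to 23.0% in males and 1.2 to 8.2% in females. Pax5 had 4 over 86.84 kb, with a narrow range of 15.2 to 18.4% in males and 2.9 to 4.1% in females. Its largest difference lay at chromosome 5, 60132447 to 60132890, where 9 CpGs averaged 18.4% in males and 2.9% in females. Pax7 also had 7 regions, with 14.9 to 28.4% in males and 2.9 to 6.6% in females, so its upper male values exceeded any at Pax2 or Pax5. The most methylated of them, chromosome 5, 158232969 to 158233064, averaged 28.4% in males and 3.6% in females over 6 CpGs. For Pax2 the largest differences were 16.5 points at 2 places of chromosome 1, with 18.1% in males and 1.6% in females at 264530684 to 264531049, and 17.7% in males and 1.2% in females at 264568022 to 264568343.

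The T-box genes showed the highest male level of all members. An intron of Tbx20 at chromosome 8, 25878715 to 25878911 had 34.8% in males and 3.2% in females over 8 CpGs, and 1.44% of the male-higher regions of the table had a difference as large. The adjacent Tbx20 region, which begins at 25878945, had 20.6% in males and 7.9% in females, and the last one at 25889916 to 25890203 had 16.4% in males and 3.0% in females. Tbx5 had 4 regions on chromosome 12, with 17.2 to 24.8% in males and 4.9 to 8.7% in females. One of them was exonic, at 42146211 to 42146792, where 22 CpGs averaged 17.2% in males and 4.9% in females.

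Six4 had a single region in this table. Its 3' UTR averaged 25.9% in males and 2.5% in females over 12 CpGs (chromosome 6, 95987734 to 95988307). Cux2 was the member with the most regions, 28 in introns spread over 196.72 kb of chromosome 12, and 37 of the 7820 genes in the table had more. Their male levels ran from 14.9 to 31.7% and their female levels from 1.2 to 10.9%. The largest difference at Cux2 was at 40074705 to 40074932, with 31.1% in males and 1.2% in females. Next came 40063928 to 40064130, with 31.7% in males and 2.6% in females. At 40027450 to 40027633 males had 29.4% and females 10.9%, the highest female level of any member in this table. Leaving Cux2 out, the other 26 regions had medians of 17.6% in males and 3.75% in females, and at Cux2 the medians were 18.85% in males with 4.8% in females.

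Weighted by CpGs, the listed regions of each gene gave a male order of Six4 (25.9%), Tbx20 (23.8%), Cux2 (20.32%), Pax7 (19.93%), Tbx5 (18.61%), Pax2 (17.03%) and Pax5 (16.35%). In females the order was Tbx5 (5.89%), Tbx20 (4.83%), Cux2 (4.78%), Pax2 (4.33%), Pax7 (4.04%), Pax5 (3.60%) and Six4 (2.5%). Six4 thus stood first in males and last in females, on the strength of 1 region. Whether neighbours in either order differ beyond the spread between samples cannot be said from group means.

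Maternal HFD was set against control diet in males at GD16, and there the members went both ways. Each of the 7 genes had at least 1 listed region, against 35.6% of the 8242 genes with a region in any table, and since the genes were picked with such listings known, nothing is read from that count. Of 13 member regions, 10 were lower and 3 higher in HFD males, and 74.0% of all 10084 listed regions were lower and 26.0% higher. Among those of at least 20 points, 2 member regions were lower and 3 higher, and 65.1% of all 2668 regions were lower and 34.9% higher. So few member regions remained that no change of direction is read from them. Among regions of at least 10 CpGs, 3 member regions were lower and 0 higher, and 83.6% of all 2624 were lower and 16.4% higher. The 10 lower regions had medians of 13.7% in HFD males and 28.4% in control males, and the 3 higher ones 28.2% in HFD males and 4.2% in control males. All lower regions of the table had medians of 10.3% in HFD males and 25.2% in control males, and all higher ones 27.7% in HFD males and 10.5% in control males. The higher member regions spanned 49 to 128 bp, with 5 to 7 CpGs each.

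**Figure D2:**
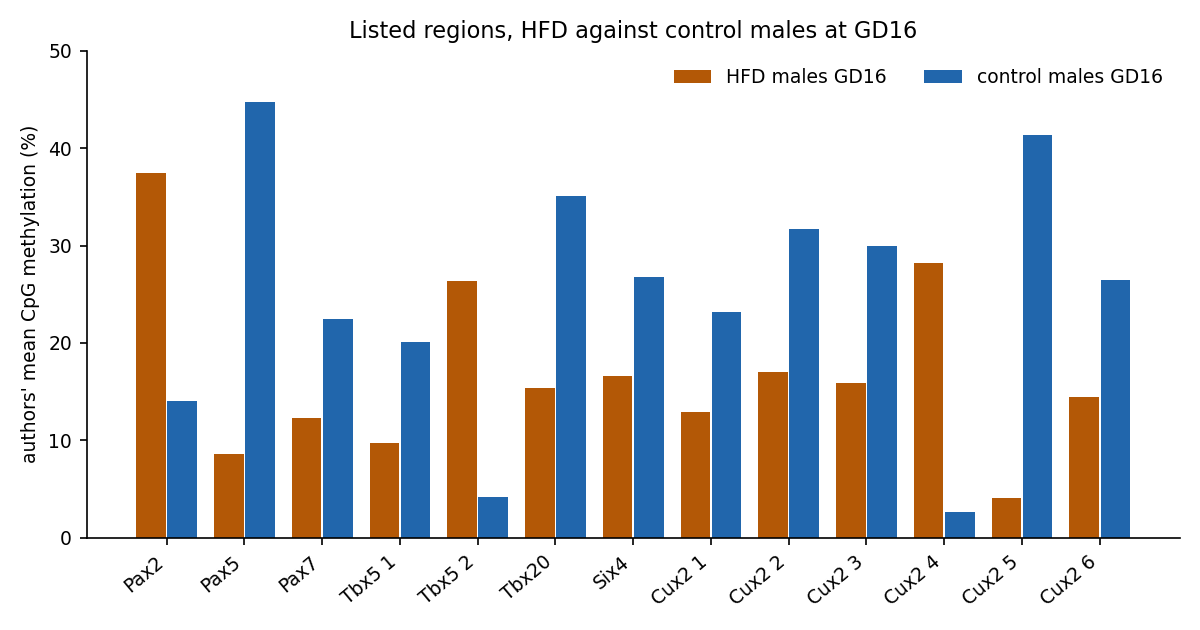
Authors' mean CpG methylation in percent (vertical axis) in HFD males and control males at GD16 for the 13 member regions of that table, numbered along the chromosome where a gene has several. HFD males are higher at Pax2, at the second Tbx5 region and at the fourth Cux2 region, and lower at the other 10.

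Pax5 and Pax2 lay on opposite sides. An intron of Pax5 at chromosome 5, 60088611 to 60088714 had 8.6% in HFD males and 44.7% in control males over 6 CpGs (FDR 2.12e-18, per the authors' deposited table). Only 2.56% of the lower regions of the table had as large a difference. Pax2 was higher on HFD, with 37.5% in HFD males and 14.0% in control males over 7 CpGs of an intron at chromosome 1, 264526186 to 264526313 (FDR 7.70e-05, per the authors' deposited table). As large a difference was found at 23.8% of the higher regions. Pax7 had 12.3% in HFD males and 22.5% in control males over 17 CpGs at chromosome 5, 158254862 to 158255501, close to the 10-point minimum for listing.

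Both T-box genes had a lower region, and Tbx5 a higher one as well. At Tbx20 an intron at chromosome 8, 25878715 to 25878961 had 15.4% in HFD males and 35.1% in control males over 11 CpGs. In an intron of Tbx5 at chromosome 12, 42128474 to 42128891, 9 CpGs averaged 9.7% in HFD males and 20.1% in control males. At the transcript end of the same gene, 42146782 to 42146830, 5 CpGs within 49 bp averaged 26.4% in HFD males and 4.2% in control males. These Tbx5 regions of opposite direction lie within 18.36 kb.

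The homeobox genes were mostly lower. Six4 had 16.6% in HFD males and 26.8% in control males over 14 CpGs of its 3' UTR (chromosome 6, 95987601 to 95988225). Cux2 had 6 regions, of which 5 were lower, and 37 of the 2934 genes in the table had more. Its largest difference was at chromosome 12, 40142765 to 40143160, in an intron over a SINE of the ID_B1 type, with 4.1% in HFD males and 41.4% in control males over 5 CpGs (FDR 2.33e-06 in the authors' deposited table). Differences that large made up 2.29% of the lower regions. The only higher Cux2 region in males, at 40105994 to 40106105, had 28.2% in HFD males and 2.7% in control males over 5 CpGs. The other 4 Cux2 regions were lower with smaller differences, with 12.9 to 17.0% in HFD males and 23.2 to 31.7% in control males.

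**Figure D3:**
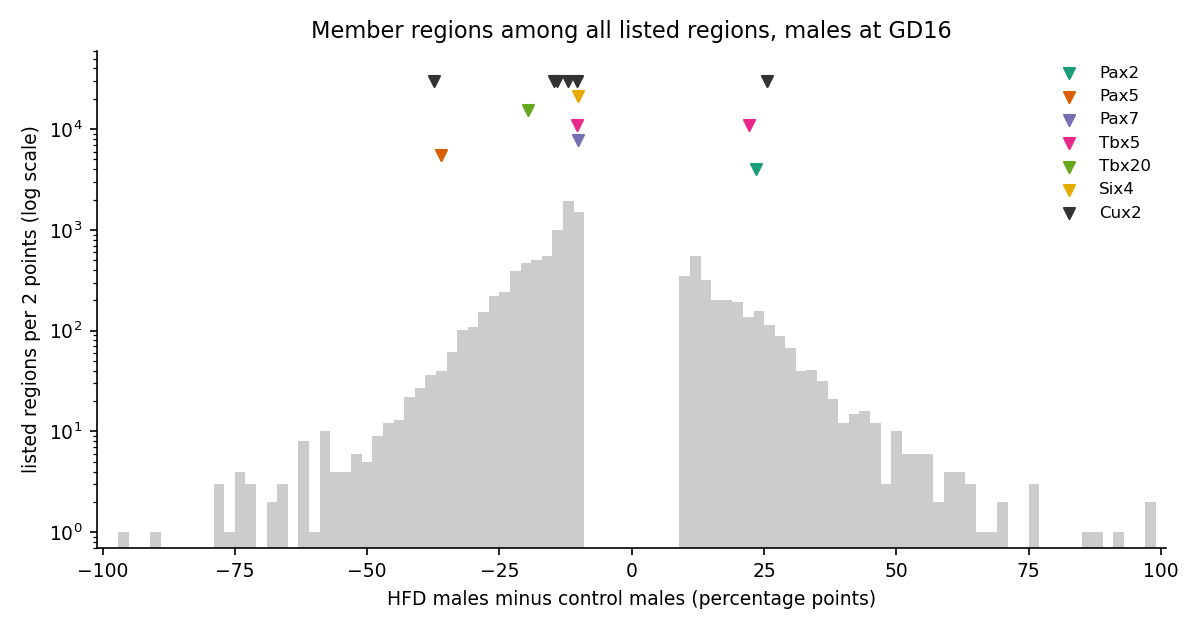
Difference of HFD males minus control males in percentage points (horizontal axis) for all 10084 listed regions as a histogram with a logarithmic vertical axis, with triangles for the 13 member regions in a row per gene. Pax5 and 1 Cux2 region lie far out among the lower regions, and Pax7, Six4, 1 Tbx5 and 1 Cux2 region lie near the 10-point minimum.

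Of the 13 male diet regions of the members, 9 (69.2%) overlapped a listed region of the table of control males against control females. Of all 10084 male diet regions 57.5% did, with 70.0% of the 7461 lower ones and 578 of the 2623 higher ones. Since 10 of the 13 member regions were lower, no excess over the listed regions is read from the 69.2%. The levels are set side by side. Both tables use the same control male libraries, so the agreement of their directions is no separate evidence. Over identical segments of Cux2 at 40063928 to 40064130, the means were 17.0% in HFD males, 31.7% in control males and 2.6% in control females. At 40204304 to 40204566 they were 14.5% in HFD males, 26.5% in control males and 5.1% in control females. In both, the HFD male level lay between those of the control sexes.

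For another 5 lower regions the overlapping segments differ in extent between the tables. Tbx20 had 15.4% in HFD males over its diet segment, and over the overlapping segment of the sex comparison 34.8% in control males and 3.2% in control females. The Six4 3' UTR had 16.6% in HFD males, against 25.9% in control males and 2.5% in control females over an overlapping segment. Pax7 gave 12.3% in HFD males, against 25.5% in control males and 3.9% in control females. The Tbx5 intron gave 9.7% in HFD males, against 24.8% in control males and 8.7% in control females over an overlapping segment. The first Cux2 region of the diet table had 12.9% in HFD males, against 27.4% in control males and 3.3% in control females over the overlapping segment. The Cux2 and Tbx5 regions that were higher in HFD males met the sex table only at their edges, with 5 shared bp at Cux2, where that table had 21.1% in control males and 6.8% in control females, and 11 shared bp at the transcript end of Tbx5. The other 4 diet regions overlapped no listed segment of the sex table. The nearest one of the same gene lay 1473 bp away at Pax5, 3311 bp at the largest Cux2 difference, 1339 bp at the lower Cux2 region that begins at 40076272, and 13 bp at Pax2. That Cux2 region had 15.9% in HFD males and 30.0% in control males. Control male means were equal in the 2 tables at 917 of 1153 identical segments and differed by up to 13.5 points at the others, so a level is fixed only within 1 table.

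**Figure D4:**
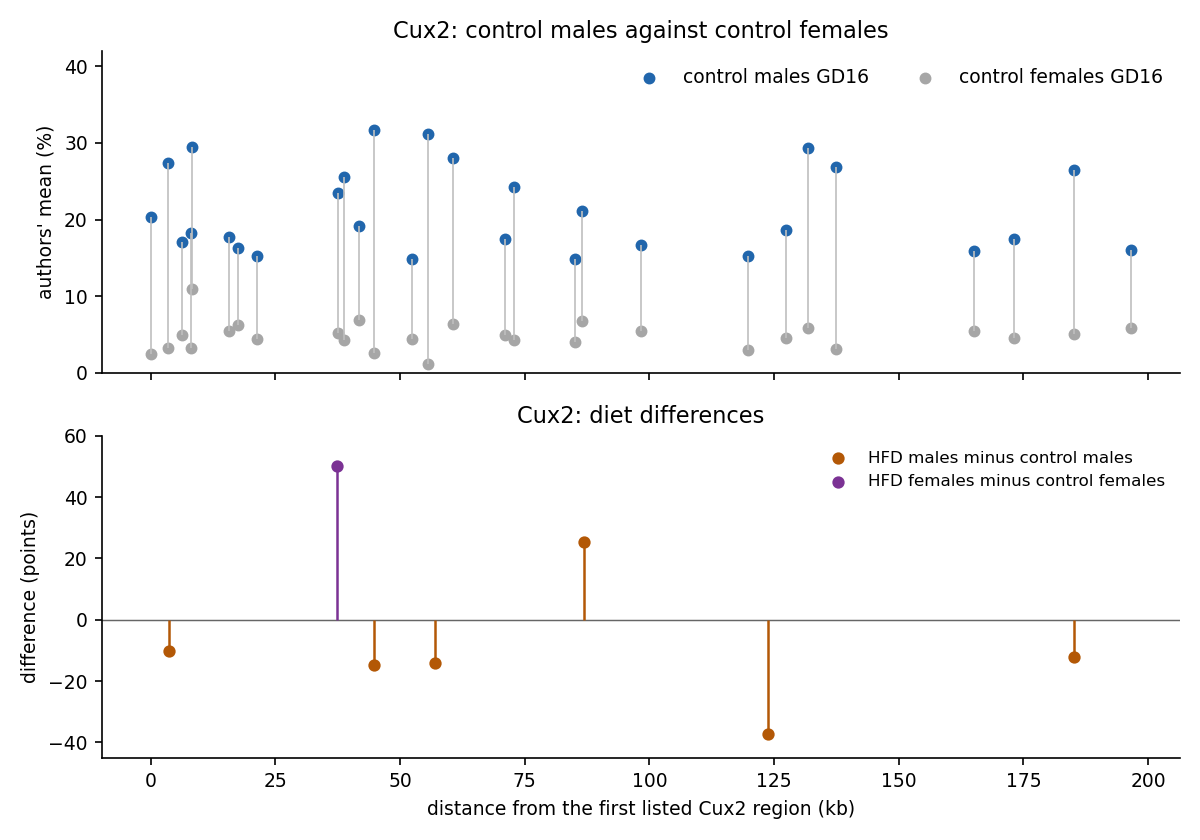
Listed regions of Cux2 by distance in kb from the first one (horizontal axis), with authors' means in percent for control males and control females at GD16 above, and diet differences in percentage points for males and females below. The 28 regions of the upper panel span 196.72 kb, and the 6 male and 1 female diet regions lie scattered among them in both directions.

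In females at GD16 the diet table held 2 member regions, both with large differences and in opposite directions. Cux2 had 50.0% in HFD females and 0% in control females over 5 CpGs of an intron at chromosome 12, 40056508 to 40056611, with a p-value and an FDR given as 0 in the authors' deposited table. It is 1 of only 4 regions in the authors' list of rises of at least 50 points in females. Pax2 had 1.1% in HFD females and 41.2% in control females over 9 CpGs within 82 bp of an intron, at chromosome 1, 264526180 to 264526261 (FDR 8.79e-05 in the authors' deposited table). Of all 1832 listed regions 71.7% were lower and 28.3% higher, with a median absolute difference of 12.8 points. Differences as large as that of Cux2 made up 0.771% of the higher regions, and as large as that of Pax2 2.89% of the lower ones. Pax5, Pax7, Tbx5, Tbx20 and Six4 had no region in this table, and 8.37% of the 8242 genes had one.

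The Pax2 regions of the male and female diet tables share 76 bp and have opposite directions. Over these neighbouring CpGs HFD males had 37.5% and control males 14.0%, and HFD females had 1.1% and control females 41.2%. The male and female comparisons share no library. Across both full diet tables, pairs of regions that overlapped by at least 1 bp numbered 293, and 125 of them (42.7%) had opposite directions. In 67 pairs HFD males were higher and HFD females lower, as at Pax2, and in 16 of the opposite pairs both differences reached 20 points. The overlapping regions were 2.89% of the male list and 15.8% of the female list. Whether the effect of diet differs between the sexes at Pax2 was not tested, since that needs values per sample.

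**Figure D5:**
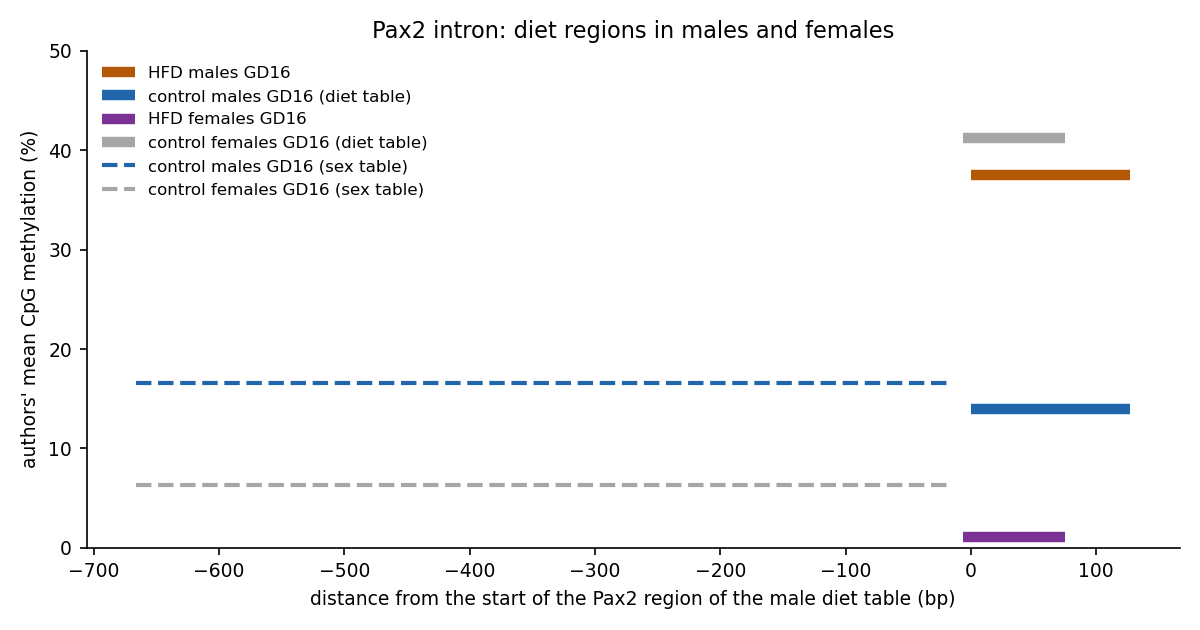
Authors' mean CpG methylation in percent (vertical axis) around the Pax2 diet regions, by distance in bp from the start of the male one (horizontal axis), where the length of each bar is the extent of its region. HFD males (37.5%) and control females (41.2%) are the high values, control males (14.0%) and HFD females (1.1%) the low ones, and the dashed lines give the neighbouring region of the sex comparison.

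In the sex comparison the nearest Pax2 region is separated from the male diet region by 13 bp and has 16.6% in control males and 6.3% in control females. Control females thus had 6.3% over 12 CpGs there in the sex table, and 41.2% over the 9 CpGs that follow in the diet table. At identical segments of these tables the control female means were equal in 126 of 144 cases and differed by up to 8.1 points in the others. At Cux2 the female diet region of 104 bp overlaps by 93 bp a region of the sex comparison that spans 616 bp. That longer region had 23.5% in control males and 5.2% in control females. The 50.0% of HFD females exceeded both control levels, but most of the longer region lies outside the diet region. Pax2 and Cux2 are among 368 genes with a region in both diet tables, which are 12.5% of the genes of the male table and 53.3% of those of the female table.

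In the last table, control males at GD18 were set against control females at GD16, so that sex and day differ together. It held 2 member regions, both lower in GD18 males, and of its 1618 regions 92.5% were lower and 7.54% higher. Six4 had 1.7% in GD18 males and 13.5% in GD16 females over 12 CpGs of an exon at chromosome 6, 95989031 to 95989459 (FDR 5.48e-04 in the authors' deposited table). The Pax7 intron at chromosome 5, 158271228 to 158271529 had 5.1% in GD18 males and 18.4% in GD16 females over 5 CpGs (FDR 0.0431 in the authors' deposited table), and it was not among the regions with an FDR of up to 0.01. Listed genes were 7.50% of the 8242.

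For both genes the sex comparison lists a region nearby with a lower mean in control females. These tables list regions for opposite differences, females being above GD18 males in one and below GD16 males in the other, and no spread is given, so whether the level changes along the gene was not tested. The Six4 exon at 13.5% lies 723 bp from the 3' UTR region, where control males at GD16 had 25.9% and control females 2.5%. The Pax7 intron at 18.4% lies 257 bp from a region with 15.6% in control males at GD16 and 2.9% in control females. These values come from 2 tables that share the control female libraries, in which the control female mean was equal at all 464 identical segments.

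Other genes of the same families were followed as a list of 30, with 6 Pax genes, 15 T-box genes, 4 relatives of Six4 and 5 cut-type homeobox genes. In the comparison of control males with control females 7 of the 30 had regions, 21 in all, each higher in males, and 33.3% of 23154 protein-coding genes had one. Pax3, a factor of the neural crest and early muscle, had 4, the largest at chromosome 9, 84025117 to 84025236 in an exon, with 31.6% in males and 8.5% in females. The other Pax genes and the relatives of Six4 in the list had none. Among the T-box genes Tbx21, the T-bet factor of T cells, had 3 regions, with up to 35.6% in males and 7.2% in females (chromosome 10, 85043724 to 85043993), Tbx3 had 2, and Tbx4 and Tbx18 had 1 each.

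Of the cut-type genes, Satb1, an organiser of chromatin in T cells, had 9 regions and Onecut1 had 1. Satb1 was the only one of the 30 with a region in a diet table, both of its regions being lower in HFD males, while 12.6% of protein-coding genes had a region there. The stronger was in its 3' UTR at chromosome 9, 2274128 to 2274307, with 12.5% in HFD males and 34.6% in control males. None of the 30 had a region in the female diet table or in the table with GD18 males, where 2.95% and 2.62% of protein-coding genes had one.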

How the data were processed

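Per the labels' protocols, DNA of sorted germ cells was bisulfite sequenced after capture with a rat methylation panel. Per the submitters' processing notes, Bowtie2 and Bismark 0.19.0 were used. Per the file headers, the authors deposited for each listed region the mean methylation of 2 groups as a fraction (printed here in percent), their signed difference as a score, a p-value from a test called a two-sample t-test, and an FDR. No source used here gives the unit of that test, and a p of 0 is listed in 3 of the 4 tables, so the p-values and FDRs may not measure variation between animals. No count, coverage or value per sample was deposited in the tables used, so depth is unknown.

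Transcripts were matched to rat RefSeq symbols (GRCr8 table, names only), and 94.1 to 94.7% of transcripts per table had one. A stray bracket was removed from 454 identifiers. Regions were overlapped at 1 bp or more, on 1-based coordinates, and the overlap code was tested on simulated data. All 7 genes were named, with the largest differences, regions in exons or UTRs and regions in more than 1 table. Of the list of related genes, 2 are not reported here. The members and lists were chosen with earlier results of these data known. Alternatives were stricter limits on CpGs, difference, FDR, length and overlap, and leaving out intergenic regions. Python 3.11.15, pandas 2.3.3, numpy 2.4.6 and matplotlib 3.10.9 were used.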

Additional observations from a re-analysis of the deposited data

How the results depend on the processing

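The counts of member regions depended on how strict the limits were. With at least 10 CpGs, the male diet table kept 3 lower and 0 higher regions, the female one kept 0 lower and 0 higher, the table of control males against control females kept 18 higher, and 1 lower was left between GD18 males and GD16 females. With a difference of at least 20 points there were 2 lower and 3 higher member regions in the male diet table, against 10 lower and 3 higher as listed, 12 higher between control males and females, and 0 lower between GD18 males and GD16 females. An FDR of up to 0.01 left 1 lower region between GD18 males and GD16 females, that of Six4. Member regions found in more than 1 table numbered 23 with an overlap of 1 bp and 4 with identical start and end. Both regions of an overlapping pair are counted, so these are listings and not separate places. The other 31 recounts stayed within 1.5 times their value, but part of them could not change. Leaving out intergenic regions removes no member region, since each is annotated to a transcript, and a count of 0 stays 0 under any stricter limit. No paired analysis was possible because the tables hold group means only, and for the same reason no replicate could be left out. The depth behind each level is unknown.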
